A study of Mus musculus with 12 samples.

Results

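The cytosolic ribosomal protein genes were followed in mouse embryonic stem cells that carry a floxed sphingosine kinase 1 gene and no sphingosine kinase 2. Members were taken by gene symbol: every row of the authors' table named Rpl or Rps and a number, with an optional a, x or y, together with Rplp0, Rplp1, Rplp2 and Rpsa, where at least 10 counts were found over the 12 libraries. This gave 76 of the 22753 genes listed, 46 for proteins of the large subunit and 30 for the small subunit. All 76 also passed the filter on low counts that left 15179 genes for testing, and the lowest count of any member in any library was 45.

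All 12 RNA-seq libraries came from clone 4 or clone 10, grown with serum and LIF. Every culture had received (Z)-4-hydroxytamoxifen, at 6 uM over 48 hours. Cells sorted as negative for Cre-GFP are labelled Sphk1fl/fl Sphk2-/-, and cells sorted as GFP-positive are labelled null for both kinases, so every group lacks Sphk2 and received the drug. There were 3 libraries per gate and clone, at passages 11 to 20, with 12968916 to 34258395 counts. No label names the promoter of Cre-GFP or what else distinguishes the clones. Replicates of a group are labelled with different passages, but no label says that they are separate cultures, so p-values stand for the spread among these libraries, some of it perhaps technical. A GFP-negative and a GFP-positive library of 1 clone with equal replicate numbers varied together and are called a pair. In 5 of 6 pairs the GFP-positive library was 1 passage later, so passage and gate cannot be told apart there. Sphk1 stood at 1.78 to 3.02 CPM (counts scaled to the library total) in GFP-negative and 0.701 to 2.02 in GFP-positive libraries of clone 4, and at 0.694 to 4.30 and 0.89 to 3.01 in clone 10, so the gates overlap in both. Sphk2 stood at 1.19 to 8.34 CPM over all libraries. Which exons were deleted is not stated, so these counts over whole genes do not check the labels.

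Ribosomal proteins join the ribosomal RNAs in the small subunit, which decodes the mRNA, and the large subunit, which forms the peptide bonds. Their mRNAs are short and abundant, and many begin with a C followed by an unbroken run of pyrimidines, the terminal oligopyrimidine (TOP) motif, through which mTOR signalling controls how many ribosomes translate them. Embryonic stem cells divide fast and depend on ribosome supply, and most ribosomal protein genes have intronless copies elsewhere in the genome, which short reads may not separate from the parent gene.

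The start sites of members are shown because this shared feature was not used to choose them. Windows run from 15 bases before to 15 bases after a start in RefSeq (GRCm38.p6), and capitals mark a C followed by at least 4 C or T that begins within 5 bases of the start. Of the 55 members with a RefSeq window, 27 (49.1%) held such a run at any listed start, against 5718 of 27025 genes (21.2%). Pyrimidines directly before the capitals, as in Rpl14, Rpl38 and Rplp2, are not marked. The unbroken pyrimidine run of Rpl14 thus begins more than 5 bases before the start. The first 6 windows hold a run and the last 3 do not.
Rps6, chr4:86857353-86857382, minus strand: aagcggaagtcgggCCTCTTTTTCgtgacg
Rps27, chr3:90213634-90213663, minus strand: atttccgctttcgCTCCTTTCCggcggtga
Rpl14, chr9:120571502-120571531, plus strand: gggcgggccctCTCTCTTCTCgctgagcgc
Rpl15, chr14:18270972-18271001, minus strand: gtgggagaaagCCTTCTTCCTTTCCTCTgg
Rpl38, chr11:114668565-114668594, plus strand: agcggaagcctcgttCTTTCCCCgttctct
Rplp2, chr7:141447636-141447665, plus strand: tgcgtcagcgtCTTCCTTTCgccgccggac
Rplp0, chr5:115559452-115559481, plus strand: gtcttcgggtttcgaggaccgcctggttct
Rpl5, chr5:107900513-107900542, plus strand: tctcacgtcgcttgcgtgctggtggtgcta
Rps12, chr10:23787195-23787224, minus strand: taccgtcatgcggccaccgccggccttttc
A match describes these letters only. A window without a run says nothing of how the mRNA is translated, and start sites listed a few bases off would miss a run.

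The name of each member was checked against GENCODE M21 by its Ensembl identifier. For 75 of the 76 the symbol was the same. The exception, the row labelled Rpl24, carries ENSMUSG00000022601 (chromosome 16, 55973883 to 56008913), which GENCODE names Zbtb11, a zinc finger gene. The Ensembl identifier of Rpl24 itself is on a row written RPL24 in capitals, with 3056 counts over all libraries, which the symbol rule leaves out along with Rps3a1 and Fau. The row labelled Rpl24 is kept below as a row and not read as a ribosomal protein.

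Ribosomal protein genes took 2.09% to 5.60% of the counts of a library. In clone 4 the share was 4.30%, 3.24% and 2.51% in GFP-negative replicates 1 to 3 and 3.13%, 3.18% and 2.09% in GFP-positive replicates. In clone 10 it was 5.60%, 2.38% and 3.0% in GFP-negative and 3.74%, 2.43% and 3.14% in GFP-positive replicates. The groups overlapped in both clones, and the means were 3.35% ± 0.90 against 2.80% ± 0.61 in clone 4 and 3.66% ± 1.71 against 3.10% ± 0.66 in clone 10 (SD, n = 3 each). The 95% Wilson interval of a library's share was at most 0.0250 percentage points wide, for counting error only, which is far below the spread between libraries.

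**Figure D1:**
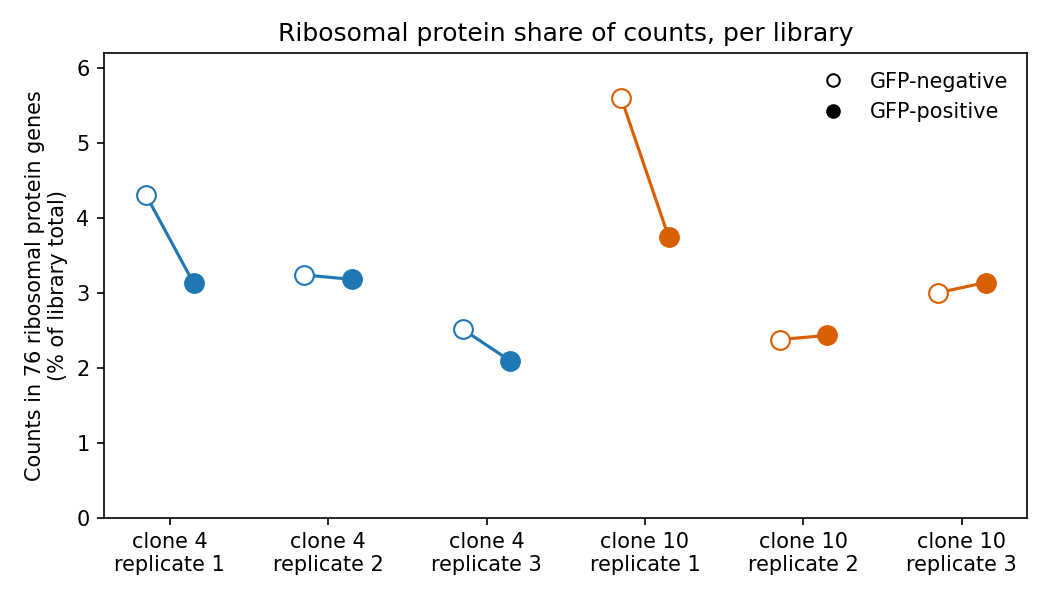
Share of each library's counts in the 76 ribosomal protein genes (y axis, % of the library total) for the 6 pairs of GFP-negative (open) and GFP-positive (filled) libraries. The GFP-negative library of replicate 1 is the highest of its clone, at 4.30% in clone 4 and 5.60% in clone 10, and the other 4 pairs differ less.

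The difference was largest in the replicate 1 pairs. These are labelled with the earliest passages of each clone, 11 and 11 in clone 4 and 11 and 12 in clone 10. Replicate 1 and early passage therefore cannot be told apart. Clone 4 pair 1 is also the only pair with the same passage in both gates. The log2 ratio of the GFP-positive to the GFP-negative share was -0.46, -0.03 and -0.27 in the clone 4 pairs and -0.58, 0.03 and 0.06 in the clone 10 pairs. The mean of both clones was -0.21, and it was -0.10 without clone 10 pair 1, an alternative added after seeing the data. Where only the GFP-negative library of that pair, the shallowest, was left out and its partner kept, the difference between group means of the log2 share was -0.03. That library also had the smallest share of mitochondrially encoded counts (0.143%, against up to 2.32%) and the largest share in its 10 most abundant genes (7.39%). Their part in the result was not tested.

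Large subunit genes held 57.5% and small subunit genes 42.5% of all ribosomal protein counts, and the 5 members of highest count held 40.2%. Levels between members are compared as CPM per kilobase of coding sequence. Counts were taken over whole genes but the divisor is coding sequence only, so a very short coding sequence, as in Rpl41, raises the value. On that scale Rpl41, the smallest protein of the set, stood highest at 7378, followed by Rplp1 (4131), an acidic protein of the stalk that recruits elongation factors, and Rpl8 (3867), a protein of the large subunit core. The lowest true members were Rps6 (23.8), the classic phosphorylation target of S6 kinase, Rps27 (22.5), and Rpl23a (13.9), which lies at the exit of the peptide tunnel. The row labelled Rpl24 was below them at 10.8.

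Since ribosomal proteins are needed in near equal numbers, their spread from 13.9 to 7378 was set beside the likeness of members to other genes. The upper end of that spread, Rpl41, depends on division by coding sequence only. For each member the share of 50-base words of its main transcript that also occur in transcripts of other genes was counted. Over the 75 members other than the Rpl24 row, the level per kilobase was lower where more words were shared (Pearson r = -0.61, Spearman rho = -0.60, as a description across genes that share libraries). The 9 members that shared under 25% of words had a median of 2400 CPM per kilobase, and the 22 that shared 75% or more had 117.9. Rps3 shared 3.0% of its words, whereas Rps27 shared 98.6%, Rpl5 93.8% and Rpl9 93.3%. Whether the authors' counting discarded reads with several matches is not stated, so levels of the latter are uncertain.

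**Figure D2:**
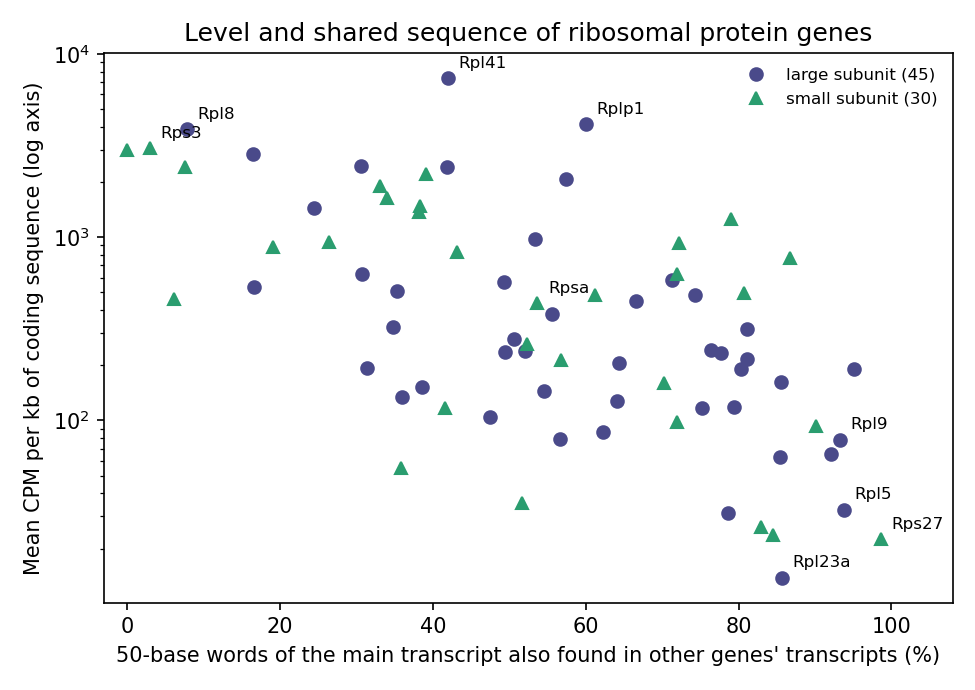
Mean CPM per kilobase of coding sequence over 12 libraries (y axis, log scale) against the percentage of 50-base transcript words also found in other genes (x axis), for 45 large and 30 small subunit genes. Rpl8 and Rps3 lie high at the left, and Rps27, Rpl5 and Rpl23a lie low at the right.

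Intronless copies are listed in the same table. Of 25 rows named as a copy of a member, 10 held at least 1000 counts, and 4 held more counts than the member. Rpl9-ps6 (chromosome 19) had 43224 counts against 12563 for Rpl9, and Rpsa-ps10 (chromosome 3) had 167380 against 99171 for Rpsa, the laminin receptor protein of the small subunit. Coding sequences of GENCODE transcripts were identical at 578 of 579 bases for the first and 879 of 885 for the second. The stretches of 60 coding bases printed here hold the first difference of each, in capitals.
Rpl9, coding bases 236 to 295: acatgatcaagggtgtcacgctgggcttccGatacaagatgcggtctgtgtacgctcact
Rpl9-ps6, coding bases 236 to 295: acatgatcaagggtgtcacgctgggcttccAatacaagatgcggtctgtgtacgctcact
Rpsa, coding bases 1 to 60: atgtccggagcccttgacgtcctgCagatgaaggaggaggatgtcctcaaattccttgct
Rpsa-ps10, coding bases 1 to 60: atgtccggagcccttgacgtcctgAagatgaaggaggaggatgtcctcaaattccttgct

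The first question was whether ribosomal protein genes changed with the Cre-GFP gate. No member was called at an adjusted p under 0.05 in clone 4, in clone 10 or in the mean of both clones, by edgeR's quasi-likelihood test without pairs, by the same test within pairs or by DESeq2. Of all genes tested, edgeR without pairs called 0% in clone 4, 0% in clone 10 and 0.158% in the mean, edgeR within pairs 0.119%, 4.22% and 3.36%, and DESeq2 0.217%, 1.9% and 1.88%. At an unadjusted p under 0.05 edgeR without pairs found 0 members in each, beside 1.38%, 7.45% and 6.77% of all genes. Within pairs it found 9, 3 and 19 members, beside 7.42%, 25.2% and 26.3%, and DESeq2 found 1, 1 and 3, beside 1.88%, 9.18% and 8.31%. As a share of the 76 members, only the 9 in clone 4 within pairs stood above that of all genes by edgeR. The 95% interval of a member's log2 change had a median half-width of 0.56 in the mean of both clones and of 0.31 within pairs. Smaller changes were not detectable for a typical member. Larger ones could also miss the threshold, since these intervals are not adjusted for the number of genes.

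Most members stood below 0 in direction. In clone 4, 75 of 76 had a negative log2 change, with a median of -0.30, while 50.1% of all genes were negative with a median of -0.00054. In clone 10, 63 of 76 were negative (median -0.37), against 53.5% of all genes (median -0.04). Within pairs the medians were -0.29 in clone 4, -0.24 in clone 10 and -0.25 in the mean, and 63 members were negative in both clones, beside 34.8% of all genes. Large and small subunit genes differed little, with within-pair medians of -0.27 and -0.24 in the mean of both clones. In the authors' deposited table, the log2 fold change of 75 of 76 members had a value below 0 in clone 4 and 65 in clone 10 (48.4% and 51.5% of all genes), none with an adjusted p under 0.05 (0.0599% and 2.7% of all genes).

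**Figure D3:**
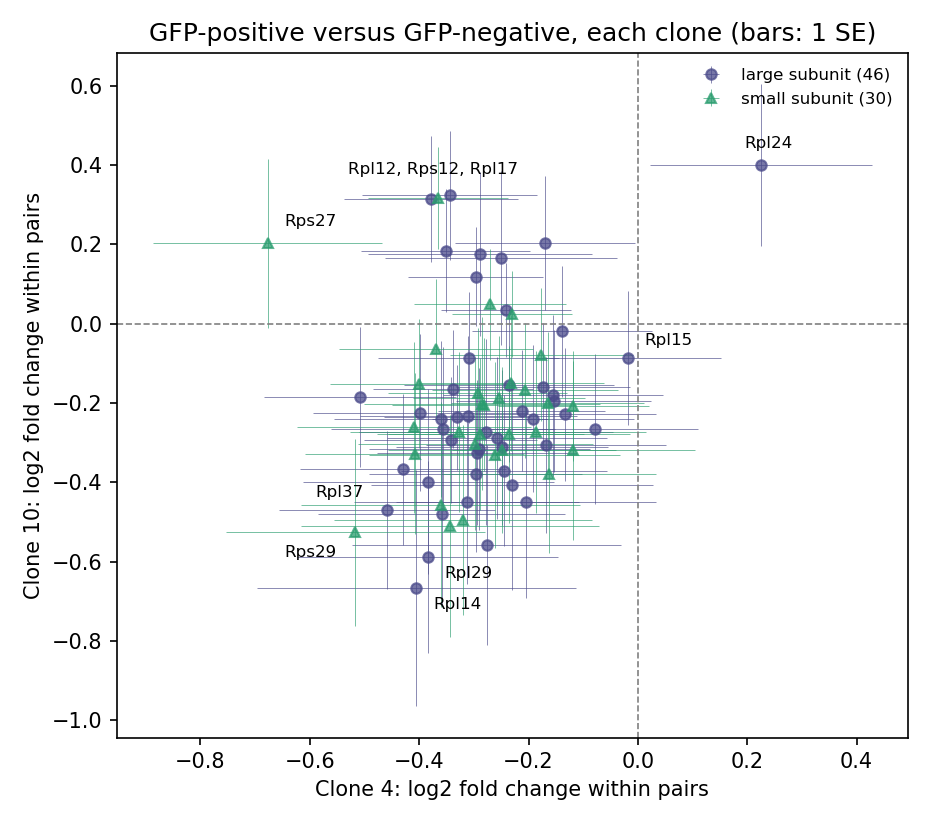
Log2 fold change within pairs, GFP-positive versus GFP-negative, in clone 4 (x axis) and clone 10 (y axis), for 46 large and 30 small subunit genes, with bars of 1 SE. Most points lie below and left of 0, the row labelled Rpl24 alone lies above and right of 0, and 12 other members lie left of 0 and above it.

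The pairs did not share this direction. The median difference of members in log2 CPM was -0.55, -0.04 and -0.23 in clone 4 pairs 1 to 3 and -0.75, -0.0017 and 0.05 in clone 10 pairs 1 to 3, with 75, 49, 70, 64, 40 and 23 of 76 members lower. In 9 members the GFP-positive library was lower in all 6 pairs, beside 7.29% of all genes. In clone 4, 48 members were lower in 3 of 3 pairs (17.8% of all genes) and in clone 10 16 were (26% of all genes). The GFP-positive libraries lay wholly below the GFP-negative ones in TMM-scaled log2 CPM for 5 members in clone 4 (1.89% of all genes), Rpl3, Rpl11, Rpl30, Rps12 and Rps25, and for 0 in clone 10 (5.57%). In CPM scaled by library totals alone, Rpl10a took the place of Rps25 in clone 4. Without clone 10 GFP-negative replicate 1 the clone 10 median was 0.14, and 62 members were positive (48.1% of all genes). Within pairs it was 0.02 without clone 10 pair 1.

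**Figure D4:**
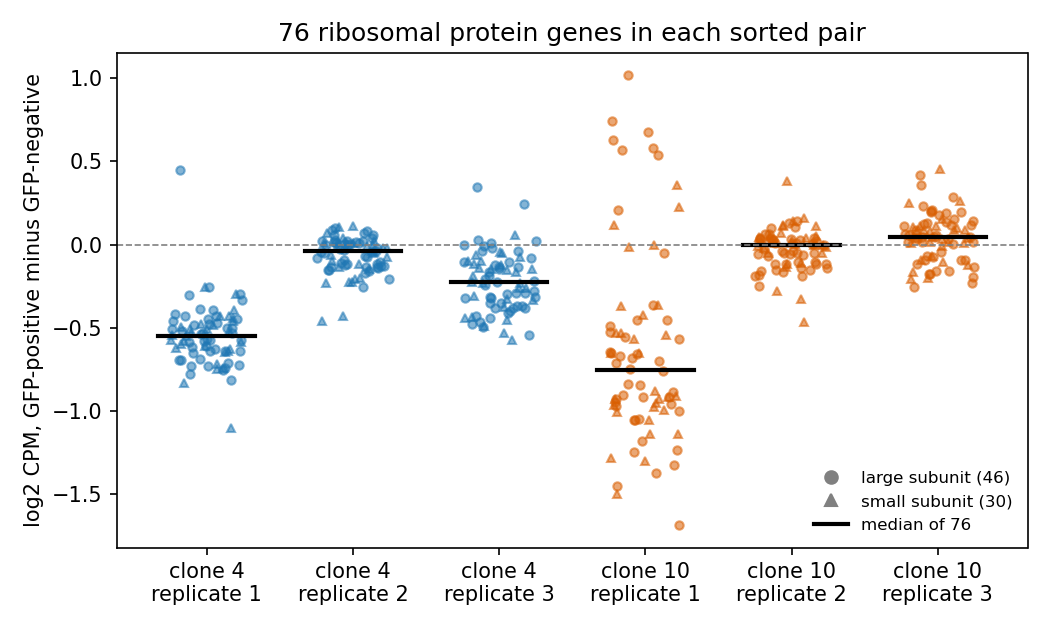
Difference in log2 CPM, GFP-positive minus GFP-negative, of each of the 76 ribosomal protein genes (points) in each of the 6 pairs, with the median as a bar. Medians are -0.55 and -0.75 in the replicate 1 pairs and between -0.23 and 0.05 in the others.

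Transcript length moved with the same libraries. The members' median transcript was 777.5 bases against 2784 for all genes tested, and 69 of 76 were among the shortest 20% of genes, up to 1597 bases. With members left out, the shortest 20% stood 0.65 above its mean over libraries (log2 CPM) in clone 10 GFP-negative replicate 1 and 0.38 above in clone 4 GFP-negative replicate 1, and the longest 20% stood at -0.58 and -0.49. Members stood at 0.97 and 0.48 in those libraries. In the comparison of both clones without pairs, the median change was -0.23 in the shortest 20% without members, 0.13 in the longest and -0.32 in members. With an offset for length and GC content in each library, an alternative added after seeing the data, the members' median was -0.06 without pairs and -0.07 within pairs. The medians of all genes were then -0.04 and -0.03. By clone, without pairs, members stood at -0.09 in clone 4 and -0.08 in clone 10 under this offset, beside -0.0076 and -0.07 for all genes. In that fit 60 of 76 members were negative in clone 4, 52 in clone 10 and 55 in the mean. Of all 15179 genes, 7839, 8674 and 8544 were negative. 1 member, Rpl37, then fell within pairs (log2 change -0.31, SE 0.07, adjusted p = 0.040, edgeR), beside 6.89% of all genes called.

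**Figure D5:**
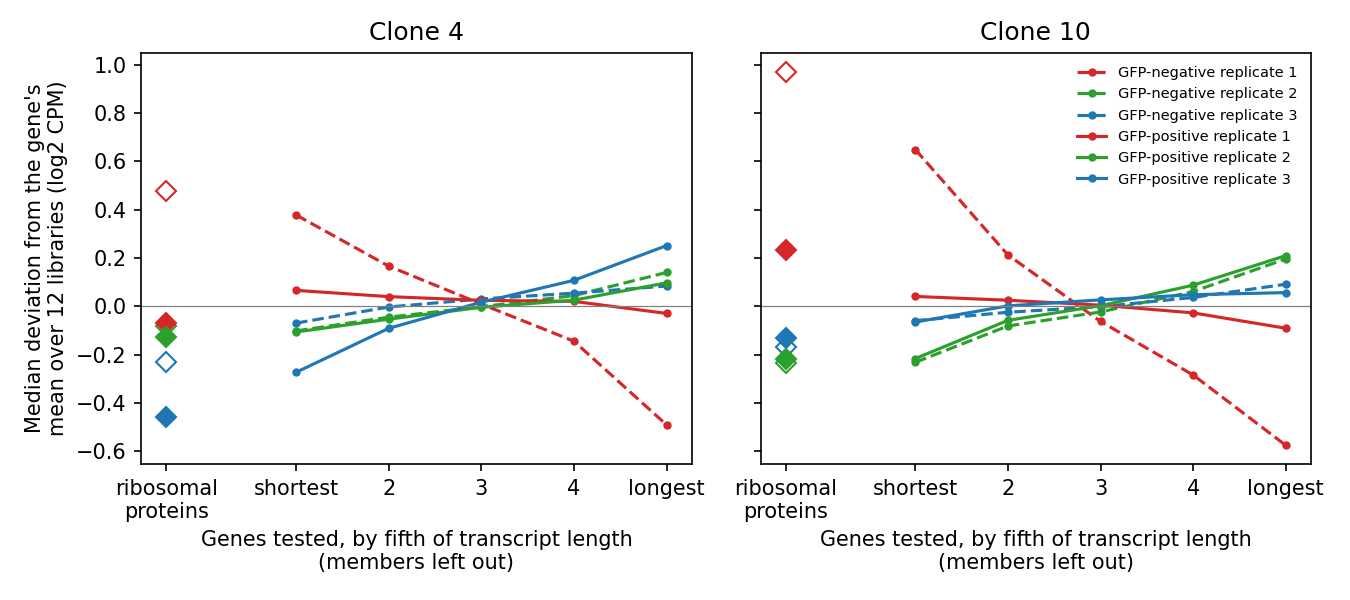
Median deviation from each gene's mean over the 12 libraries (y axis, log2 CPM) for genes in 5 bins of transcript length, members left out (lines), and for the ribosomal protein genes (diamonds, open for GFP-negative). GFP-negative replicate 1 of both clones slopes from high in short to low in long genes, and its diamonds, 0.48 and 0.97, are the highest.

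The stalk proteins form the landing site of translation factors, and none of the 3 passed the test. Rplp1 stood at 1986, 1223 and 964 CPM in clone 4 GFP-negative replicates and at 1437, 1213 and 729 in GFP-positive ones. In clone 10 it stood at 3008, 902.1 and 1288 against 1782, 984 and 1434 CPM. The replicate 1 library is the highest of each GFP-negative group and the groups overlap. The log2 change was -0.40 (SE 0.33) over both clones and -0.28 (SE 0.17) within pairs, adjusted p = 0.793 and 0.296 by edgeR. Rplp2 (-0.27, SE 0.14) and Rplp0 (-0.08, SE 0.12) gave smaller values within pairs.

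Among large subunit genes, Rpl14 (chromosome 9, 120571517 to 120574653) had the largest negative change. Its CPM was 517.5, 358.6 and 295.9 in clone 4 GFP-negative and 308.3, 367.8 and 201.9 in GFP-positive replicates. In clone 10 it was 904.2, 256.7 and 343.1 against 346.3, 233.2 and 309.4. The groups overlap in clone 4, and in clone 10 GFP-negative replicate 1 alone is far above the rest. The within-pair log2 change over both clones was -0.54 (SE 0.21, adjusted p = 0.159, edgeR). Rpl29, a basic protein of the large subunit, gave -0.49 (SE 0.17, adjusted p = 0.137), and Rpl37 gave the smallest adjusted p of any member (-0.46, SE 0.14, adjusted p = 0.108, edgeR). Rpl37 was lower in 6 of 6 pairs, by between -1.05 and -0.11.

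Rpl5 and Rpl11 enter the ribosome together with the 5S RNA and, when free, bind Mdm2, so they link ribosome assembly to p53. Rpl11 was lower in 6 of 6 pairs, with 69.7, 46.8 and 45.7 CPM against 45.0, 42.5 and 30.9 in clone 4 and 74.7, 35.8 and 41.7 against 49.2, 33.7 and 40.0 in clone 10. Its groups did not overlap in clone 4 and did in clone 10. Its within-pair change was -0.40 (SE 0.13, adjusted p = 0.130, edgeR). Rpl5 did not share the pattern, with 35.8, 32.4 and 41.0 CPM against 31.4, 32.8 and 31.3 in clone 4 and 13.1, 27.4 and 24.7 against 25, 25.4 and 28.1 in clone 10. Its within-pair change was 0.02 (SE 0.12, adjusted p = 0.939, edgeR).

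Of the other members named by rule, Rpl22, whose loss is tolerated through its paralog Rpl22l1, stood at -0.38 (SE 0.15) within pairs, and Rpl41 at -0.31 (SE 0.13). Rpl38, required for translation of a set of Hox mRNAs, stood at -0.32 (SE 0.19), and Rpl39, a protein of the exit tunnel, at -0.22 (SE 0.13). Rpl8 stood at -0.33 (SE 0.17) and Rpl10, which helps to join the subunits, at -0.06 (SE 0.15). Rpl15 stood at -0.05 (SE 0.12) and Rpl23a at -0.04 (SE 0.15). None of these passed the test, with adjusted p from 0.157 to 0.870 by edgeR. Rpl22 was lower in 6 of 6 pairs, by between -1.05 and -0.02.

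In the small subunit, Rps29 gave the largest negative change within pairs over both clones (-0.52, SE 0.17, adjusted p = 0.118, edgeR) at a mean of 9.24 CPM. Rpsa stood at -0.41 (SE 0.17), Rps15 at -0.43 (SE 0.20), Rps4x, the X-linked form, at -0.26 (SE 0.16), and Rps19, the gene most often mutated in Diamond-Blackfan anaemia, at -0.19 (SE 0.12). Rps27a, which is made as a fusion to ubiquitin, stood at -0.11 (SE 0.10). Rps6 had 19.6, 11.8 and 23.0 CPM against 17.1, 11.2 and 21 in clone 4 and 17.9, 24.9 and 14.0 against 17.1, 23.0 and 13.1 in clone 10. The partners of each pair are close and the GFP-positive library is the lower in all 6, whereas replicates of a group differ by more. Its within-pair change was -0.16 (SE 0.10, adjusted p = 0.295, edgeR).

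A few members differed in direction between the clones. Rps12 had 39.3, 40.8 and 36.2 CPM in GFP-negative against 29.1, 34.4 and 26.2 in GFP-positive libraries of clone 4, and 34.6, 37.9 and 28.9 against 54.7, 42.6 and 40.6 in clone 10. It was lower in every pair of clone 4 and higher in every pair of clone 10. Rps27 had 10.1, 8.4 and 5.4 against 4.9, 6.0 and 3.7 CPM in clone 4, and 5.2, 3.3 and 4.5 against 7.0, 4.4 and 4.9 in clone 10, with the same opposite directions. The difference between the clones' changes was tested for all genes. It called 0 members and 0% of all genes by edgeR without and within pairs and 0 members by DESeq2, with 1 member at an unadjusted p under 0.05 by edgeR without pairs (0.922% of all genes), 6 within pairs (7.69%) and 1 by DESeq2 (1.23%). The largest difference was 0.90 (SE 0.51) for Rps27 and the most negative -0.53 (SE 0.64) for Rpl14, both with an adjusted p of 1.

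The 12 true members above 0 in clone 10 within pairs shared a median of 83.4% of their words with other genes, and the 63 below 0 (51% of all genes were) shared 52.1%. Their median levels were 43.6 and 200.6 CPM. Among the 22 members sharing 75% or more, 9 were above 0 in clone 10. Rpl12 (0.31, SE 0.16) and Rpl17 (0.32, SE 0.16) had positive changes of the same size as Rps12 (0.32, SE 0.13), each with an adjusted p of 0.173 to 0.248 by edgeR. The listed copy Rps12-ps3 was identical to Rps12 at 399 of 399 coding bases and had 3830 counts against 10329. Whether reads of copies enter these values was not tested.

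The clones were also compared with each other in the same gate. Clone 4 libraries are labelled passages 11 to 16. Clone 10 libraries are at 11 and 12 in replicate 1 and at 17 to 20 in replicates 2 and 3. A difference between clones therefore cannot be told apart from later passage. No member was called in GFP-negative cells (0.0461% of all genes by edgeR) or in GFP-positive cells (1.11%), and DESeq2 called 0 in both (2.75% and 5.86%). At an unadjusted p under 0.05 there were 2 members in each by edgeR (11.9% and 14.3% of all genes) and 3 and 2 by DESeq2 (14.3% and 16.6%). The members' median was 0.19 in GFP-negative and 0.17 in GFP-positive cells, clone 10 against clone 4, beside 0.04 and -0.0039 for all genes. It turned to -0.26 in GFP-negative cells without clone 10 GFP-negative replicate 1, with 67 of 76 members lower, and was 0.02 in GFP-positive cells without clone 10 GFP-positive replicate 1. With the offset for length and GC content the medians were 0.00081 and 0.02. Rpl21 was lowest in clone 10, with 116.6, 90.1 and 103.9 CPM in GFP-positive libraries against 246.0, 225.5 and 160.8 in clone 4. Its log2 difference was -0.99 (SE 0.38, adjusted p = 0.254, edgeR), and without clone 10 GFP-negative replicate 1 it passed the test at -0.99 (SE 0.21, adjusted p = 0.046, edgeR). The library left out lies outside this comparison. The log2 difference barely moved, while the SE, from a spread estimated over all groups, fell. Without that library 198 of 15496 genes were called higher and 89 lower. Rpl21 also passed with the offset for length and GC content, where 3.47% of all genes were called. In GFP-negative cells Rpl13a, also a subunit of the GAIT complex, stood highest in clone 10 (0.82, SE 0.40) and Rps27 lowest (-0.70, SE 0.36), and Rplp2 stood highest in GFP-positive cells (0.69, SE 0.39), with adjusted p of 0.452 to 0.475 by edgeR.

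Over the 12 libraries most members moved together. The correlation of a member's log2 CPM with the mean of the others had a median of 0.92 and was above 0.8 for 53 members. It was negative for the row labelled Rpl24 (-0.76), Rpl5 (-0.58), Rpl23a (-0.45), Rpl10 (-0.28) and Rpl10a (-0.17). The 5 genes outside the set most like its mean were Oaz1 (r = 0.97), the antizyme that limits polyamine synthesis, Gm10269 (0.97), Gm10288 (0.97), Eif3i (0.97), a subunit of an initiation factor, and Mrpl52 (0.97), a mitochondrial ribosomal protein. These values describe 12 libraries that differ in depth and length composition, and are not tests.

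Other genes of the pathway were taken from lists. Of 75 mitochondrial ribosomal protein genes tested, 0 were called in the mean of both clones by edgeR without or within pairs, and the medians were -0.31 and -0.27, with 74 of 75 negative in both fits, beside 51.2% and 49.6% of all genes. Of 23 translation factors and other TOP genes, 1 was called within pairs, Vim, an intermediate filament gene, at -1.05 (SE 0.16, adjusted p = 0.013, edgeR), and the list's median was -0.15. Of 50 ribosome biogenesis genes 0 were called, with a within-pair median of -0.11. Of 18 RNA polymerase I genes 0 were called in the mean, and 1 within pairs in clone 10, Taf1d (0.74, SE 0.14, adjusted p = 0.026, edgeR). Within pairs, 3.36% of all genes were called in the mean and 4.22% in clone 10. Of 19 genes of mTOR and TOP control 0 were called, with a median of 0.05. Without pairs edgeR called 0 in each of these lists in clone 4, clone 10 and the mean. With the offset for length and GC content within pairs, the mitochondrial median in the mean was -0.12 and 1 gene was called, Mrpl52 (-0.30, SE 0.07, adjusted p = 0.047, edgeR). The median of mTOR and TOP control turned to -0.10 under that offset, and 2 genes were called, Ddit4 (0.51, SE 0.09, adjusted p = 0.015, edgeR) and Sesn2 (0.30, SE 0.06, adjusted p = 0.026, edgeR), both stress-induced inhibitors of mTORC1. In the mean that fit also called Taf1d of RNA polymerase I (0.45, SE 0.10, adjusted p = 0.036, edgeR) and again Vim (-0.99, SE 0.17), beside 6.89% of all genes. In clone 10 it called 960 of 15179 genes higher and 645 lower. Of these lists, the genes called lower there were 4 mitochondrial ribosomal protein genes, Emg1 and Noc2l of ribosome biogenesis and Znrd1 of RNA polymerase I. Those called higher there were Taf1d, Ddit4 and Sesn2.

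Of 12 ribosomal protein genes and paralogs outside the symbol rule, 1 was called within pairs in clone 10 and in the mean, beside 4.22% and 3.36% of all genes. Rpl10l, an intronless paralog of Rpl10 known from the testis (chromosome 12, 66283381 to 66284401), stood at 31.2, 21.1 and 19.5 CPM in clone 10 GFP-negative and at 88.4, 35.0 and 58.0 in GFP-positive libraries. These do not overlap in CPM by library totals. With TMM scaling, GFP-negative replicate 1 (factor 0.83) comes slightly above GFP-positive replicate 2 (factor 0.949). On the TMM scale 1425 of 15179 genes lay wholly above in GFP-positive libraries of clone 10. In clone 4 Rpl10l stood at 21, 11.5 and 11.3 against 23.0, 12.9 and 12.6. In clone 10 it rose within pairs, by 1.15 on the log2 scale (SE 0.17, adjusted p = 0.009, edgeR), and without pairs the adjusted p was 0.428. In clone 4 the within-pair change was 0.17. Summed markers of the 2-cell-like state were 66.9 to 158.8 CPM in GFP-negative and 704.9 to 3404 CPM in GFP-positive libraries of clone 10, with Tdpoz3 at 0 in some library, and 3.80 to 14.4 against 22.5 to 231.2 in clone 4. Their part in the Rpl10l result was not tested.

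All 10 markers of naive pluripotency were detected in every library. They summed to 4678 to 4868 CPM in GFP-negative and 4167 to 5246 in GFP-positive libraries of clone 4, and to 6212 to 6772 and 4618 to 5852 in clone 10, where the gates do not overlap. Fibroblast markers, of which 14 of 15 had counts in every library and Lum was at 0 in some, summed to 1250 to 2568 and 976.9 to 1566 CPM in GFP-negative and GFP-positive libraries of clone 4 and to 811.2 to 3298 and 1198 to 2060 in clone 10. Primitive endoderm, trophoblast and neural markers reached at most 359.5, 353.1 and 93.2 CPM in sum. In these bulk libraries fewer cells of a type and less RNA per cell cannot be told apart, and the part of other cells or cell states in the members' values was not tested.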

How the data were processed

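The authors deposited a table of whole-number read counts per gene for the 12 libraries, not normalized, from total RNA taken through a TruSeq v2 kit, per the labels' protocols. Per the submitters' processing notes, the tools included STAR 2.3.0e, HTSeq 0.6.0, DESeq and DESeq2, with mm10 as the build. No source used here states the annotation release or whether counting used strand, and reads of overlapping genes may be mixed. The authors' tables per clone, per the file headers, add a signal (counts over a size factor), a log2 fold change, a score (the fold change divided by its error) and p-values. Only the log2 fold changes and adjusted p-values of members were used, beside values fitted here.

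The deposited counts entered edgeR 4.0.16 unchanged, under R 4.3.3 (TMM, robust quasi-likelihood F test, default filter of 10 counts at the median library size in enough libraries and 15 in total), with 1 term per group, 8 residual degrees of freedom and Benjamini-Hochberg adjustment over 15179 genes. A second fit held the pair as a block, with 4 degrees of freedom. The pairing comes from the replicate numbers in the labels: deviations from group means correlated at 0.548 to 0.822 in same-numbered libraries of a clone and at -0.541 to -0.228 in others. Deviations in a group sum to 0, so the negative values follow in part from the positive ones. CPM use library totals, and differences in log2 CPM use TMM-scaled totals. DESeq2 1.42.0, other scalings, no filter, left-out libraries and an offset for length and GC were alternatives. The edgeR fit for the mean of both clones, without and with the block, was tested on simulated data.

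Members and gene lists were chosen with earlier results of these data known. Named were 15 members fixed by function, the 3 highest and 3 lowest per coding base, and per comparison the called members and the largest changes each way. Rpl3, Rpl9, Rpl10a, Rpl30, Rpl37, Rps3, Rps12 and Rps25 were named after their values were seen. Transcript lengths and shared words come from GENCODE M21, start windows from RefSeq. Some items are not reported here. Protein sequences were not used here.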

Additional observations from a re-analysis of the deposited data

Results flagged for a closer look

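In 4 members every pair of clone 4 was lower and every pair of clone 10 higher in GFP-positive cells, beside 3.38% of all genes tested that were opposite in this sense in either direction. The difference between the clones' log2 changes within pairs was 0.88 (SE 0.30) for Rps27, 0.69 (SE 0.23) for Rpl12, 0.68 (SE 0.18) for Rps12 and 0.67 (SE 0.23) for Rpl17. The test of the difference itself gave adjusted p of 0.583, 0.576, 0.528 and 0.587 by edgeR within pairs and of 1 without pairs, so none passed. The copy Rps12-ps3 was identical to Rps12 at 399 of 399 coding bases, and whether its reads enter Rps12 was not tested.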

How the results depend on the processing

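The count of members called was 0 in all 6 comparisons by edgeR and stayed 0 in all 6 under DESeq2, the other scalings, no filter and the members as GENCODE names them. It was also 0 in the 4 comparisons fitted with the replicate block. The block was not fitted between the clones in a gate. The exceptions were the length and GC offset (added after seeing the data, as was the GENCODE membership), which called 1 member in the mean of both clones with the replicate block (Rpl37) and 1 in GFP-positive cells between the clones (Rpl21), and leaving out a library, which gave 0 to 1 in the latter. The cause was not tested. Of all genes tested in the mean of both clones, 24 were called by edgeR, 510 with the replicate block and 286 by DESeq2. The members' median change in clone 10 ran from -0.59 to 0.14 when a library or pair was left out, the latter without GFP-negative replicate 1. It ran from -0.43 to -0.05 in clone 4 and from -0.44 to -0.06 in the mean. Of 44 single values, 15 changed sign in some setting, none with a call. In the mean of both clones the offset gave, without and with the replicate block, 0.057 and 0.12 for Rpl10, 0.11 and 0.12 for Rpl12, 0.19 and 0.19 for Rpl15, 0.10 and 0.13 for Rpl17, 0.032 and 0.11 for Rpl23a, 0.070 and 0.075 for Rplp0, 0.078 and 0.077 for Rps19, 0.042 and 0.049 for Rps27a and 0.012 and 0.014 for Rps6, and in clone 4 0.25 and 0.21 for Rpl15. Rpl5 was 0.016 with the replicate block, 0.015 with that block and TMM without members, and 0.00055 with no filter, where Rpl12 was 0.0053. The replicate block by itself changed no call of a member.

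Leaving out a library or a pair moved these members over 0 in the mean of both clones: Rpl10 (-0.21 to 0.15), Rpl12 (-0.26 to 0.15), Rpl15 (-0.21 to 0.053), Rpl17 (-0.086 to 0.070), Rpl23a (-0.14 to 0.14), Rpl5 (-0.10 to 0.11), Rplp0 (-0.21 to 0.10), Rplp1 (-0.56 to 0.012), Rps19 (-0.40 to 0.060) and Rps27a (-0.26 to 0.025). It did so for Rpl15 (-0.20 to 0.20) and the row labelled Rpl24 (-0.11 to 0.52) in clone 4, for Rps15 in clone 10 (-1.20 to 0.15) and for the difference of Rpl14 (-0.86 to 0.36). The lowest count of a member in any library was 45. Whether reads of near-identical copies enter a member was not tested.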
